A study of Mus musculus with 6 samples.

Results

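The genes described here are 9 cathepsins, Ctsa, Ctsb, Ctsc, Ctsd, Ctsh, Ctsk, Ctsl, Ctss and Ctsz, and 4930486L24Rik, a gene of the papain family to which most cathepsins belong. They were taken by name, and every probe whose accession maps to 1 of them was kept, which gave 12 probes for 10 genes among the 39429 probes and 19751 named genes of the array. The choice was made with the difference between knockout and wild type testis already known, so the values of these genes in that comparison are given as a description and support nothing. All 12 probes were well above background on all 6 arrays and all entered the fit, so none of them passed through 1 genotype alone.

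Cathepsins are proteases of the endosome and lysosome, made as inactive precursors that are activated by cleavage in an acid compartment. Most are cysteine proteases built like papain and held in check by cystatins, while cathepsin D is an aspartic protease and cathepsin A a serine carboxypeptidase. In the testis, Sertoli cells, the somatic cells that surround and nurse the germ cells, digest the cast-off cytoplasm of elongating spermatids and the remains of dying germ cells in their lysosomes, and rodent Sertoli cells also secrete procathepsin L at set stages of the seminiferous cycle.

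Testes were taken whole from male C57BL/6J mice that had reached 10 weeks, 3 labelled TAp73 KO and 3 labelled TAp73 WT, and each mouse gave 1 array with 1 colour. TAp73 stands for the p73 proteins with the transactivation domain, which are encoded by Trp73, a relative of the p53 gene. The study's stated subject was the adhesion and maturation of sperm cells. The labels give neither the position of the deletion within Trp73 nor the litters of the mice, and the array reads all cells of the testis together.

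The arrays had 74.4% to 84.4% of probes well above background and 1.59% to 4.45% of probes saturated, and they correlated with each other at 0.983 to 0.993 over probes, with the lowest values held by knockout array 1. Their number, 3 in each group, limits the precision of every value. Trp73 itself gave signals of 17.2, 4.81 and 5.17 on the knockout arrays at probe A_52_P193555, where the wild type arrays gave 605, 548 and 587. These signals are unscaled, and the 75th percentile by which arrays are scaled below was 0.26 higher (log2) in wild type. The series' separate value table carries the opposite labels: each of its columns labelled wild type matched a knockout scanner file, with correlations of deviations of 0.831 to 0.986 for matching pairs. Directions below follow the scanner files, and those of 11 of the 12 probes turn around under the table's own labels, all but the saturated Ctsl.

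The promoters are shown first because 3 of the cathepsins share a short motif there and 4930486L24Rik, the gene with the widest difference between the groups, has neither that motif nor a single CpG. The sequences are the 250 bases before the annotated start, from RefSeq on GRCm38.p6, written 5′ to 3′ on the gene's strand, and capitals mark CACGTG, the core of the E-box and of the element that the transcription factors TFEB, TFE3 and MITF read in many lysosomal genes. They lie at chr7:142387828-142388077 on the minus strand for Ctsd, chr2:164833523-164833772 on the plus strand for Ctsa, chr13:64370521-64370770 on the minus strand for Ctsl and chr13:60864417-60864666 on the minus strand for 4930486L24Rik.
Ctsd: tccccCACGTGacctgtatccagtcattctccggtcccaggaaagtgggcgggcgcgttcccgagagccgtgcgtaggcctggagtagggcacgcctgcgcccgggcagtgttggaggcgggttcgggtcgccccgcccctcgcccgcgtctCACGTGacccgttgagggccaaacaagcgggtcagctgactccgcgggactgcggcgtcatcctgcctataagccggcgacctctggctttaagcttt
Ctsa: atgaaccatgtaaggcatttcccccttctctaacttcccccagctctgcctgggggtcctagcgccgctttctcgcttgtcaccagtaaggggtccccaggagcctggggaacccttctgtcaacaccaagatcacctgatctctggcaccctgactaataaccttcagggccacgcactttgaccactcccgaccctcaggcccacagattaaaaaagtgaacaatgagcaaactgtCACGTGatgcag
Ctsl: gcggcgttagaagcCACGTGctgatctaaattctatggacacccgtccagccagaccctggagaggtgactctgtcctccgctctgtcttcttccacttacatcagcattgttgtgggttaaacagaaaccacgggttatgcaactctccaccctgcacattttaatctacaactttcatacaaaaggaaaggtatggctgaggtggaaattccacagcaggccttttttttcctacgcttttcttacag
4930486L24Rik: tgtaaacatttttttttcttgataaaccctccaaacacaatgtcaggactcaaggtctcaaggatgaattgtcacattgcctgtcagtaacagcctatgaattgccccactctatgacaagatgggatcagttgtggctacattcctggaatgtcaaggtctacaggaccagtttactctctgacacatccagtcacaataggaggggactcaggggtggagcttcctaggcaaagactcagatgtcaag

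CACGTG reads the same on both strands and was searched in 250 bases before and 50 after each start. In Ctsd the motif began at positions -245 and -98, in Ctsa at -12 and +6, and in Ctsl at -236, counted from the start; the copy at +6 lies beyond the bases printed. Of 9 promoter entries found for 8 of the 10 genes, 3 held it, and 2 of these held it at least 2 times. A second Ctsa entry had none, and Ctsb and Ctsh had no entry. Over all 32851 promoters in the table, 7.15% held the motif and 0.594% held it at least 2 times. The 300-base window of 4930486L24Rik held 0 CpG, as did 5.43% of all promoters, while that of Ctsd held 33, against a median of 7. These matches describe letters in a window and were not tested against the expression values.

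Cathepsin signals were lower in the knockout testes at 11 of the 12 probes, on every knockout array relative to every wild type array after scaling to the array's 75th percentile. Over all probes with values on the 6 arrays, 13.1% had every knockout array below every wild type array and 18.6% had every one above. The median difference, knockout minus wild type, was -0.56 on the log2 scale over the 12 probes, beside 0.06 over all 31801 tested probes. In the limma fit across all tested probes, 2.64% were called lower and 0.248% higher at a Benjamini-Hochberg adjusted p under 0.05. Of the 12 probes, 5 were called lower, 0 higher and 7 were not called. The called probes belong to 4930486L24Rik, Ctss, Ctsc, Ctsa and Ctsz. Since these genes were chosen on this comparison, nothing is read from that count.

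**Figure D1:**
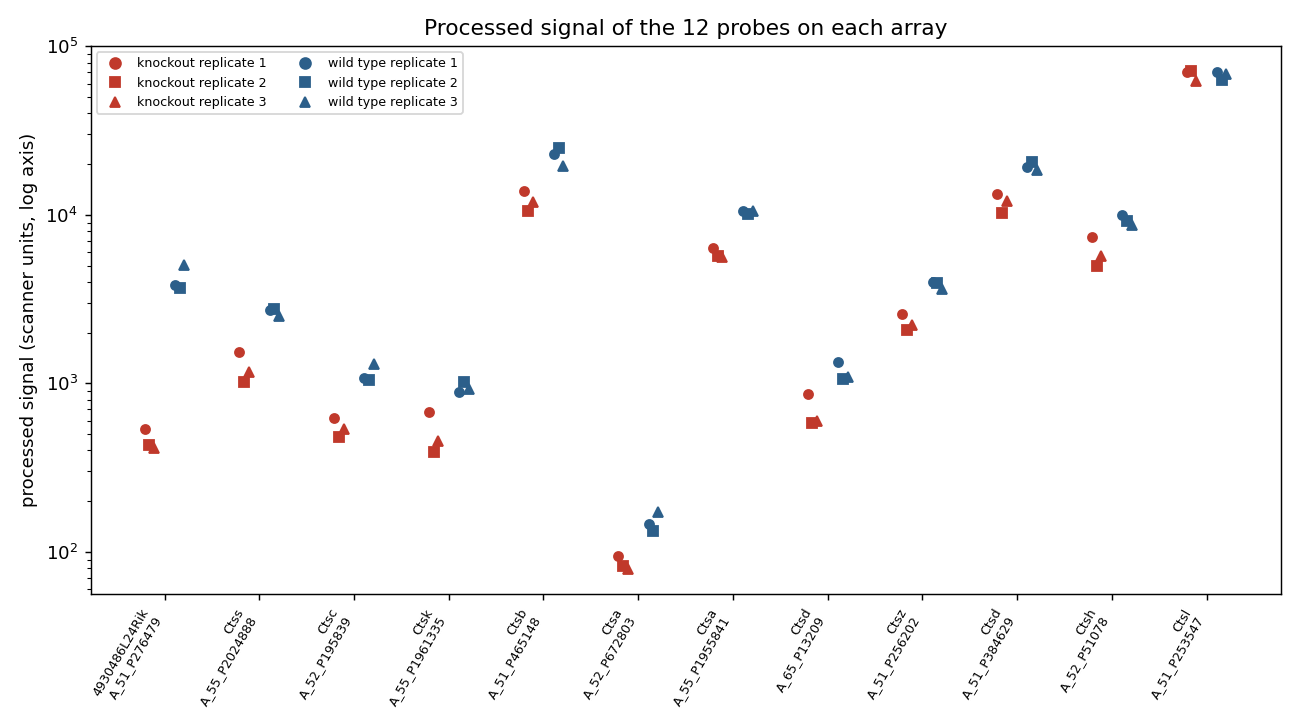
Processed signal, in scanner units on a log axis, of each of the 12 probes on each of the 3 knockout arrays (red) and 3 wild type arrays (blue), with 1 marker shape per replicate number. At every probe other than that of Ctsl, the 3 red points lie below the 3 blue ones; heights of different probes are not comparable.

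4930486L24Rik had the widest gap. Its probe gave signals of 536, 430 and 414 on the knockout arrays and 3840, 3701 and 5003 on the wild type arrays. Every wild type array was thus several times above every knockout array, and the spread within each genotype was small beside the gap. After scaling, the level in the knockout was 7.58-fold lower, with a log2 difference of -2.92 ± 0.13 (SE, n = 3 arrays in each group). The next largest fold among the unsaturated probes was 1.82, that of Ctss, so 4930486L24Rik stands apart from the cathepsins in size. The knockout arrays still read it well above background.

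Ctss and Ctsk lie next to each other on chromosome 3, with no other protein-coding gene between them. Cathepsin S is made mainly by antigen-presenting cells, where it trims the invariant chain of MHC class II molecules. Ctss gave signals of 1528, 1014 and 1171 in the knockout and 2724, 2750 and 2512 in wild type, without overlap. Its scaled level was 1.82-fold lower, a log2 difference of -0.87 ± 0.10 (SE, n = 3 in each group). Cathepsin K is the collagen-cleaving protease of osteoclasts. Ctsk gave 675, 391 and 452 in the knockout and 892, 1018 and 931 in wild type, with knockout array 1 the nearest to the wild type range. The scaled difference of Ctsk was -0.68 ± 0.15 (SE, n = 3), or 1.61-fold lower, and it was not called. Knockout array 1 was also the highest of the 3 knockout arrays for Ctss.

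The genes on either side of the pair differed less between the genotypes. Arnt, Setdb1 and Cers2 on one side had log2 differences of -0.16, 0.03 and -0.31, and Hormad1, Golph3l and Ensa on the other had 0.21, 0.03 and -0.04. None of these 6 passed the limma test over all probes, with adjusted p between 0.0781 for Cers2 and 0.901 for Golph3l. Among the neighbours of 4930486L24Rik on chromosome 13, in a stretch with other papain-like genes and the papain propeptide-like inhibitors Ctla2a and Ctla2b, Gas1, Tut7 and Ctsm had differences of -0.04, 0.00 and -0.02. Ctsm lies 11 protein-coding genes away and was dim, with signals of 33.1 to 41.8 over the 6 arrays. Ctla2b had -0.19, with a limma adjusted p of 0.463. Dapk1 had a difference of -1.08 ± 0.20 (SE, limma adjusted p = 0.0505) and Ctla2a one of -1.40 ± 0.79 (SE, adjusted p = 0.317), and neither was called. Ctla2a gave a signal of 79.0 on knockout array 1, against 498 and 450 on knockout arrays 2 and 3. The nearest papain-like genes, Ctsll3 and BC051665, were not far enough above background to be tested.

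Cathepsins C, B and H are papain-like enzymes that also trim chain ends. Cathepsin C removes dipeptides and activates the granule serine proteases of leukocytes. Ctsc gave 626, 480 and 537 in the knockout and 1079, 1045 and 1306 in wild type, and the scaled level was 1.75-fold lower (log2 difference -0.80 ± 0.11 SE, n = 3). Cathepsin B, an abundant lysosomal protease in most cells, gave 13838, 10502 and 11907 in the knockout and 22842, 25050 and 19576 in wild type. The groups did not overlap, and Ctsb was 1.56-fold lower with a log2 difference of -0.64 ± 0.12 (SE, n = 3). It lay just outside the threshold of the fit. Cathepsin H is an aminopeptidase, and its probe gave 7355, 4998 and 5666 in the knockout and 9952, 9234 and 8643 in wild type. Ctsh had the smallest difference of the unsaturated probes, -0.39 ± 0.09 (SE, n = 3), or 1.31-fold lower, with knockout array 1 again the highest of its group.

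Cathepsin D, the main aspartic protease of the lysosome, was read by 2 probes. Probe A_51_P384629 gave 13247, 10287 and 12047 in the knockout and 19089, 20579 and 18357 in wild type. Probe A_65_P13209 gave 865, 581 and 596 against 1331, 1063 and 1087. Their log2 differences, -0.45 ± 0.10 and -0.53 ± 0.11 (SE, n = 3), lay within 1 SE of each other, and neither probe was called.

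Cathepsin A holds the sialidase Neu1 and beta-galactosidase in a stable lysosomal complex, beside its own carboxypeptidase activity. Probe A_55_P1955841 of Ctsa gave 6362, 5703 and 5643 in the knockout and 10510, 10147 and 10504 in wild type, and probe A_52_P672803 gave 95.1, 82.1 and 79.1 against 147, 134 and 173. Both put the scaled difference at -0.56, with SE of 0.08 and 0.11, and only the first was called. The weaker-signal probe depended on the background correction: with normexp its difference was 0.26. Cathepsin Z, a carboxypeptidase also called cathepsin X, gave 2594, 2076 and 2205 in the knockout and 4017, 3955 and 3636 in wild type. Ctsz was 1.42-fold lower (log2 difference -0.50 ± 0.08 SE, n = 3), and its 3 scaled knockout values were nearly equal, with an SD of 0.0031.

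Cathepsin L, which Sertoli cells secrete as a precursor, could not be ordered. Ctsl gave 70049, 71455 and 62473 in the knockout and 69976, 63196 and 68648 in wild type, and these ranges overlapped before scaling. The probe was saturated on all 3 knockout arrays and on 2 of the 3 wild type arrays. The scaled log2 difference was 0.27, close to the 0.26 by which the wild type arrays exceeded the knockout arrays at the 75th percentile. Under quantile normalization it was -0.01. No fold is given for Ctsl, and its place above the wild type arrays in the scaled values is not a measured rise.

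**Figure D2:**
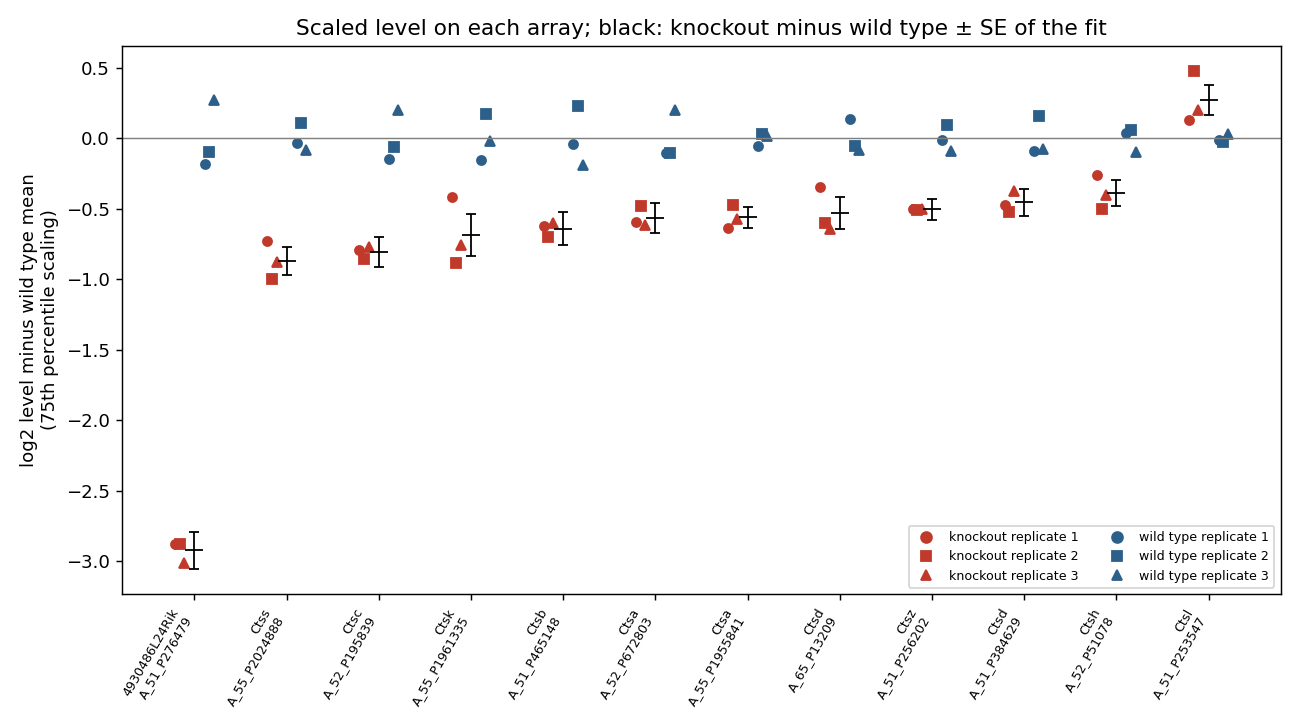
Log2 level of each probe on each array after scaling to the 75th percentile, with the probe's wild type mean set to 0; markers as in the plot of signals, and black bars give the knockout minus wild type difference ± SE of the fit. The knockout arrays lie below the wild type arrays at 11 probes, from -2.92 for 4930486L24Rik to -0.39 for Ctsh, and Ctsl, saturated on 5 of 6 arrays, lies above.

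The cathepsins were lower by similar amounts on each knockout array. The median over the 10 genes, each by its brightest probe and relative to the wild type mean, was -0.56, -0.61 and -0.58 on knockout arrays 1 to 3, and -0.04, 0.08 and -0.05 on the wild type arrays. Knockout array 2 gave the lowest knockout value at 7 of the 12 probes, and wild type array 2 gave the highest wild type value at 7. The arrays came from 2 slides, with 2 arrays of each genotype on slide 1 and 1 of each on slide 2. All 11 unsaturated probes were lower in the knockout within both slides: 4930486L24Rik had -2.92 and -2.91, Ctss -0.81 and -0.99, Ctsc -0.85 and -0.72, and Ctsk -0.56 and -0.92 on slides 1 and 2. With slide as a block, 2 of the 12 probes were called, those of 4930486L24Rik and Ctss, beside 299 of all tested probes called lower.

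The number of called probes depended on single arrays. It was 2 without knockout array 1, 1 without knockout array 2, 1 without knockout array 3, 3 without wild type array 1, 1 without wild type array 2 and 2 without wild type array 3, while the number of all tested probes called lower was 116 to 420 in these fits, against 838. 4930486L24Rik was called in each of these 6 fits, with differences between -3.01 and -2.78. Ctss was called without knockout array 1 and without wild type array 1, and Ctsc without wild type array 1 and without wild type array 3. The probes of Ctsa and Ctsz were called in none of the 6.

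**Figure D3:**
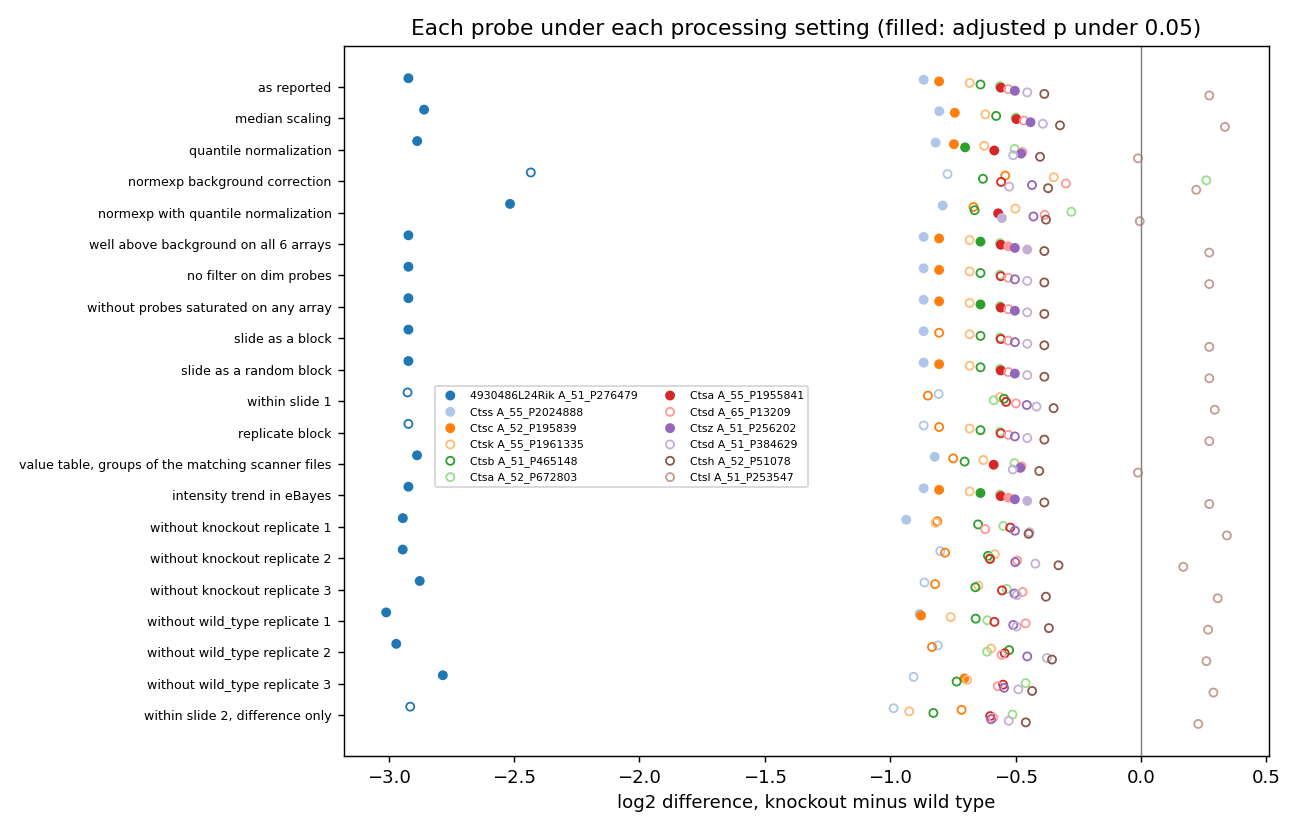
Log2 difference, knockout minus wild type, of each probe (colour) under each processing setting (line), the value table's own opposite labels left out; filled circles passed an adjusted p under 0.05, and slide 2, with 1 array of each genotype, has no test. In the settings drawn, 4930486L24Rik stays between -3.01 and -2.43, and the other probes stay between about -1 and 0 apart from Ctsl and, under normexp, the second Ctsa probe at 0.26.

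Likeness of profile was measured as the root mean square distance between mean-centred log2 profiles over the 6 arrays, among 16915 genes. The 5 nearest to 4930486L24Rik were Robo4 at 0.122, Igfbp3 at 0.182, Wnt4 at 0.202, Tnfrsf12a at 0.239 and Cd83 at 0.243. The 5 nearest to Ctss were Ifitm2 at 0.047, Trip6 at 0.053, Gpr137b-ps at 0.058, Crispld2 at 0.067 and C1ra at 0.069. The points are 6 arrays in 2 groups, so these lists mainly hold genes with a like difference between the genotypes. No other member was among the 5 nearest genes of either.

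Other proteases, inhibitors and lysosomal genes give the setting for these values. Over the 17041 named genes tested, each by its brightest probe, 3.52% were called lower and 0.217% higher, and the median difference was 0.05. By the same measure the median of the 10 genes was -0.60. Of 22 related genes, which are cathepsins, papain-like genes and other proteases, 11 were tested, and 1 was called lower and 0 higher. Their median was -0.08, with 9 of the 11 negative, and at an unadjusted limma p under 0.05 there were 4 lower and 1 higher. The called gene was Lgmn, which encodes legumain, an asparaginyl protease that processes lysosomal cathepsins. Lgmn gave 16401, 13720 and 13277 in the knockout and 29418, 27963 and 26577 in wild type, and fell 1.62-fold (log2 difference -0.70 ± 0.08 SE, limma adjusted p = 0.0124). Most of the untested genes, such as Ctsj, Ctsq and Ctsr, belong to the placental branch of the family.

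Of 19 genes for cystatins, their relatives and other protease inhibitors, 0 were called by limma in either direction. At an unadjusted p under 0.05 there were 3 lower and 0 higher, and not all of the 19 are known to inhibit cathepsins. Their median was 0.10, but 6 of them were saturated on at least 1 array and the median without these was -0.04. The summed level of the 13 unsaturated genes was 2.04 to 2.23 in the knockout and 2.57 to 2.64 in wild type, without overlap. Cstb made up most of this sum on every array, so the sum does not describe the other genes of the list. The median over all 19 and the sum differ in direction. The genes of this list with the smallest p were Ahsg, with -1.01 ± 0.22 (SE, limma adjusted p = 0.0687), and Cstb, which encodes the intracellular inhibitor cystatin B, with -0.34 ± 0.09 (SE, adjusted p = 0.109). On the signal scale Cstb gave 8093, 5723 and 5665 in the knockout and 9963, 9366 and 9689 in wild type, which do not overlap.

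Lysosomal enzymes reach their compartment through mannose 6-phosphate receptors and other sorting proteins. Of 18 sorting receptors, tagging enzymes and regulators, 2 were called lower and 0 higher, with a median of -0.12. At an unadjusted limma p under 0.05 there were 3 lower and 2 higher, and 1 of the 18 was saturated on at least 1 array. Psap, the precursor of the saposins that assist lipid hydrolases, fell 1.62-fold (-0.69 ± 0.10 SE, adjusted p = 0.0279). Mitf, a transcription factor of the family that reads CACGTG-type elements, fell 1.49-fold (-0.57 ± 0.10 SE, adjusted p = 0.0427). The related Tfeb and Tfe3 had -0.18 (adjusted p = 0.333) and -0.19 (adjusted p = 0.254) and were not called. The mannose 6-phosphate receptor genes M6pr and Igf2r had differences of 0.02 and -0.06 and were not called.

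Of 29 partners of cathepsin A and other lysosomal hydrolases, 4 were called lower and 0 higher, with a median of -0.17. At an unadjusted limma p under 0.05 there were 11 lower and 2 higher, and 3 of the 29 were saturated on at least 1 array. The largest of the called differences was that of Lipa, the acid lipase that frees cholesterol and fatty acids, at -1.10 ± 0.10 (SE, limma adjusted p = 0.00722). Neu1, the sialidase that cathepsin A protects, gave 2668, 2344 and 2384 in the knockout and 4067, 4073 and 3984 in wild type. It fell 1.37-fold (-0.46 ± 0.08 SE, adjusted p = 0.0391). Ids, encoding iduronate sulfatase, had a difference of -0.45 ± 0.08 (SE, adjusted p = 0.0435). Glb1, the beta-galactosidase of the same complex as Ctsa and Neu1, had -0.09 (adjusted p = 0.594), so the 3 genes of the complex did not have like values, though the difference between Glb1 and the other two was not tested.

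Whole testis holds several cell types that use cathepsins, and in such bulk RNA fewer cells of a type and less RNA per cell cannot be told apart. Sertoli cell markers were the list with the lowest median among the cell types, -0.44, with 4 of 18 called lower and 0 higher: Sox9, Vim, Gata1 and Aard, at -0.64, -0.58, -0.51 and -0.44 (limma adjusted p = 0.0186, 0.0280, 0.0464 and 0.0401). Their summed level, relative to the 75th percentile and over 17 unsaturated probes, was 31.7 to 32.8 in the knockout and 42.2 to 44.5 in wild type, without overlap. Their part in the lower cathepsin values was not tested.

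Leukocyte markers, which bear on Ctss and Ctsc, had 3 of 17 called lower and 0 higher, with a median of -0.23. The called genes were Lyz1, which encodes lysozyme, at -0.96, C1qc, a subunit of complement C1q, at -0.72, and Cd14, a monocyte receptor, also at -0.72 (limma adjusted p = 0.0210, 0.0198 and 0.0101). Ptprc, which encodes the leukocyte common antigen, had 0.04 and was not called. Of the 17 markers, 13 had negative differences, and at an unadjusted limma p under 0.05 there were 8 lower and 0 higher. The summed level over 16 unsaturated probes was 12.2 to 13.4 in the knockout and 13.2 to 15.5 in wild type, so the groups overlapped. Itgam, with a difference of 0.01, made up most of this sum on every array. That overlap rests on Itgam, and without it every knockout sum lay below every wild type sum. Of 8 genes of MHC class II presentation, Cd74 alone was called, with a difference of -1.11 ± 0.12 (SE, limma adjusted p = 0.0124). Cd74 encodes the invariant chain that cathepsin S cleaves, and it gave 2881, 2396 and 2579 in the knockout and 6917, 5622 and 7952 in wild type. The median of the 8 was -0.17, with 6 of them negative. Their summed level, Cd74 included, was 4.20 to 4.73 in the knockout and 4.97 to 6.30 in wild type. That separation rests on Cd74, and without it the groups overlap. The part of either list in the values of Ctss and Ctsc was not tested.

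Leydig cell markers had 2 of 9 called lower, Hsd11b1 and Hsd3b1, at -0.84 and -0.76 (limma adjusted p = 0.0320 and 0.0369). Their median was -0.29, and their summed levels overlapped between the groups. That overlap rests on Cyp17a1, which gave a signal of 15200 on knockout array 1 against 53764 and 56889 on knockout arrays 2 and 3. Without Cyp17a1 every knockout sum lay below every wild type sum. Star and Hsd3b6 went the other way, at 0.63 (adjusted p = 0.197) and 0.40 (adjusted p = 0.227), with every scaled knockout value above every wild type value and neither called. At an unadjusted p under 0.05, 3 Leydig markers were lower and 1 higher. Peritubular and endothelial markers had 0 of 10 called by limma, and at an unadjusted p under 0.05 there were 1 lower and 1 higher. Germ cell markers, which define the tissue, were present, with 7 of 14 saturated on at least 1 array. Of the 14, 0 were called by limma, and 4 were higher and 1 lower where p was left unadjusted at 0.05, with 2 of the 4, Odf1 and Akap4, saturated on most arrays. Their median was 0.24, and 0.08 without the saturated probes. Their sum over the 7 unsaturated probes was 24.2 to 26.5 in the knockout and 22.4 to 23.8 in wild type. Acrv1, one of these probes, had unscaled signals of 56478, 52951 and 52453 in the knockout and 56967, 55436 and 54664 in wild type, so its scaled difference of 0.21 lies within the scaling difference of 0.26. Epididymal Lcn5, Lcn8 and Lcn9 were too dim to be tested, and 1 of 7 tested epididymis and efferent duct genes was called (Spink8, -1.11, adjusted p = 0.0206). The median of these 7 was 0.03, with 3 of them negative. Of 3 blood cell genes, 0 were called by limma, with 1 lower at an unadjusted p under 0.05. The part of these cell types in the cathepsin values was not tested.

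**Figure D4:**
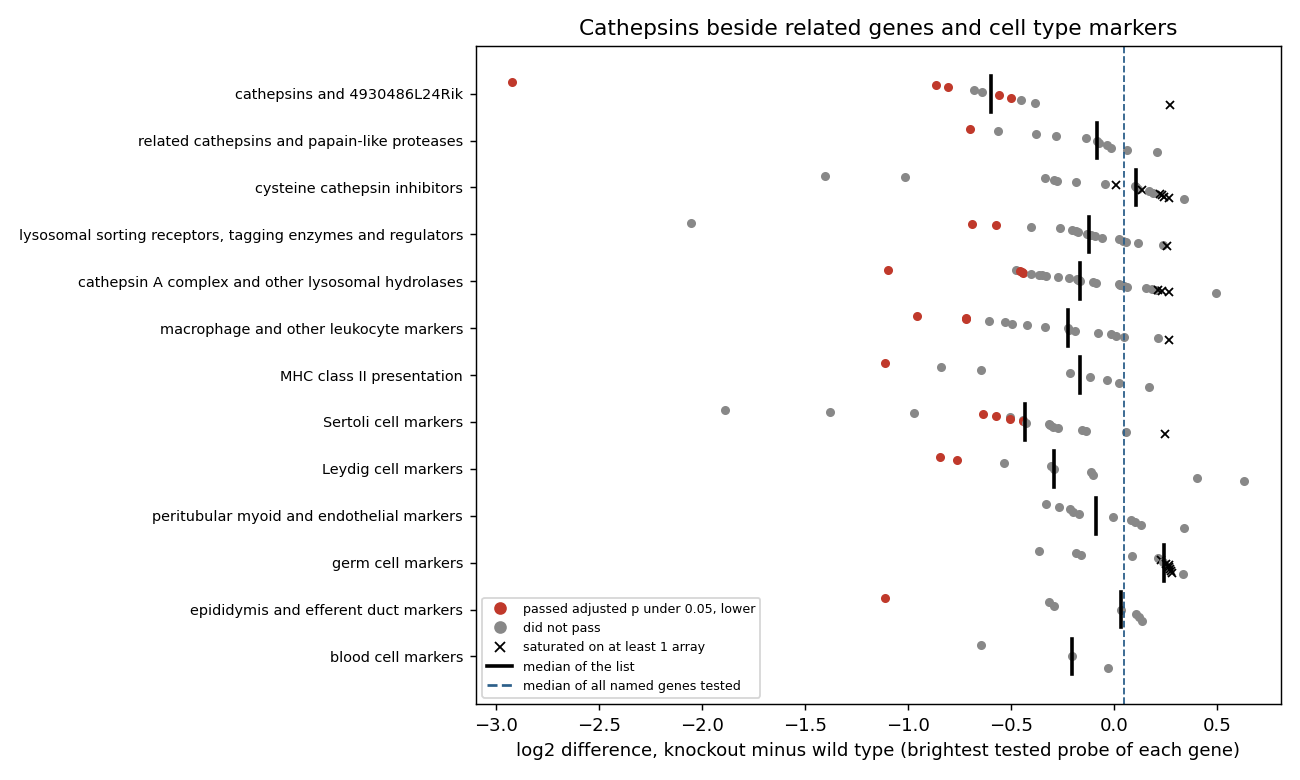
Log2 difference, knockout minus wild type, of each gene by its brightest tested probe, for the 10 genes described and 12 lists of related genes and cell type markers; red points passed the test, crosses were saturated on at least 1 array, black bars are list medians and the dashed line is the median of all named genes tested, 0.05. The 10 genes have the lowest median, -0.60, on which they were chosen, followed by Sertoli cell markers at -0.44.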

How the data were processed

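RNA of whole testis was read on 1-colour Agilent arrays, 1 per mouse. The scanner output was written by Feature Extraction 10.7.3.1 for an mm9-based design, per the file headers, and the deposited values used here are the background-subtracted processed signal, a linear intensity per spot. The label protocol names Cy3 and another label field biotin. The deposited value table is also linear intensity; its scale and normalization are known only from its values, and its labels oppose those of the scanner files. The submitters' processing notes name limma.

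Control spots and spots marked as outliers were left out, and saturated spots kept. Log2 signals were averaged per probe and put on each array's 75th percentile as zero. A probe entered the test with 3 or more of 6 arrays well above background and 2 or more values per group. The test was limma 3.58.1 under R 4.3.3, by lmFit then eBayes with group as the only term, two-sided, with Benjamini-Hochberg adjustment over all 31801 probes. The scripts were tested on simulated data. Accessions were matched to RefSeq names of GRCm38.p6: 26055 of 39429 probes got 1 symbol, 0 several, and 13374 stayed unnamed. Each list's genes were represented by the brightest tested probe. The related genes named are up to 4 called genes of each list with the largest differences, or the 2 with the smallest p where none was called, Neu1 and Glb1, Trp73, and the 5 nearest profiles of 4930486L24Rik and of Ctss, apart from 1 gene that is not reported here; other genes given with values (neighbours, M6pr, Igf2r, Ptprc, Tfeb, Tfe3, Star, Hsd3b6, Acrv1, Odf1) were added after their values were seen. Itgam and Cyp17a1 were likewise added after their values were seen. The members and lists were chosen with earlier results of these data known.

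Alternatives were other scalings and background corrections, filters, slide terms, the value table, an intensity trend and leaving out each array; the value table with matched groups and slide as a random block were added after seeing the data. Normexp ran on the median signal with the median background (offset 50), where the mean signal had been planned. The labels do not say whether replicate numbers pair the mice. Deviations of same-numbered arrays correlated at -0.03, -0.08 and -0.09, which shows no pairing but cannot exclude one. Protein sequences were not used here. Each array is a separate mouse per the series' design text.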

Additional observations from a re-analysis of the deposited data

How the results depend on the processing

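Of the 12 probes, 5 were called lower as reported. The count was 0 with normexp background correction, within slide 1, with the replicate block and under the value table's own labels (where 4 were higher), 2 with slide as a block, 3 with no filter on dim probes, 8 with an intensity trend, 9 with probes well above background on all 6 arrays, and 1 to 3 when each array was left out. Over all probes, 838 lower and 79 higher became 0 and 0 with normexp (810 and 1075 at an unadjusted p under 0.05), where the median of all probes moved to 0.22, and 0 and 0 within slide 1 (1809 and 1332). They became 405 lower with normexp and quantile together, 349 and 13 with no filter, 299 and 15 with slide as a block, 9 and 1 with the replicate block, 56 and 466 under the table's own labels and 466 lower with its groups matched. With the trend 1080 were lower, and 1109 of 29028 with the filter on all 6 arrays. Higher calls were 143 with median scaling, 217 with quantile normalization, 165 with the filter on all 6 arrays, 39 with slide as a random block and 207 with the trend. Leaving out 1 array gave 116 to 420 lower and 7 to 28 higher, 116 without knockout array 2 and 117 without wild type array 2. The left-out and single-slide fits also had fewer arrays, and the cause of these changes was not tested.

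Directions of the 11 unsaturated probes held under every alternative other than 2. Under the value table's own labels they were 2.89 for 4930486L24Rik, 0.82 for Ctss, 0.75 for Ctsc, 0.70 for Ctsb, 0.63 for Ctsk, 0.59 and 0.50 for Ctsa, 0.51 and 0.48 for Ctsd, 0.48 for Ctsz and 0.41 for Ctsh. With normexp, Ctsa probe A_52_P672803 was 0.26. Ctsl turned to -0.0117 under quantile normalization, -0.0048 with normexp added and -0.0118 in the value table with matched groups. 4930486L24Rik was called lower in 16 of the 19 tested alternatives other than the value table's own labels, Ctss in 12, Ctsc in 9, Ctsa in 8 and Ctsz in 7. The median of the related cathepsins and other proteases, -0.08, was 0.25 with normexp. Whether the replicate numbers pair the mice is not known, so the calls lost with that block cannot be read either way. Signal limits Ctsl, which was saturated, and the dimmer Ctsa probe, which lay nearest to background.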
